A study of Mus musculus with 10 samples.

Results

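SWI/SNF is a chromatin remodelling complex that uses ATP to move or eject nucleosomes, and many of its subunits come as paralogs that take the same place in different versions of the complex. Messenger RNA levels of 10 such genes were examined: Arid1a, Arid1b and Arid2, the ATPases Smarca2 and Smarca4, the scaffold subunits Smarcc1 and Smarcc2, and Smarcd1, Smarcd2 and Smarcd3. They were chosen by name, and all 10 were found among the 49568 genes of the table. The data are 10 RNA-seq libraries, each made from a different cultured line of mouse pancreatic cancer cells. The genotype label is KPC for A1081, A1620, A1625, A2031 and A2032. It is KPCAf/f for A1693, A1809, A1925, A2441 and A3992, which gives n = 5 lines per genotype. KPC is a widely used name for a genetically engineered pancreatic tumour model. The labels spell out neither genotype and give no Cre driver, deleted exon, animal age or relation between lines, and the series title names ARID1A as the gene under study. The p-values thus rest on line-to-line spread, which may be partly technical.

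In textbook accounts, an active SWI/SNF complex holds 1 ATPase, either SMARCA2 or SMARCA4, on a core built from SMARCC1 and SMARCC2 with 1 SMARCD subunit. ARID1A and ARID1B exclude each other in the canonical form of the complex (BAF), and ARID2 takes their place in the polybromo form (PBAF). ARID1A is often lost in human cancers, and cells without it can come to rely on ARID1B.

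Paralogs can share reads where their sequences are identical, so the coding sequences were compared first. The transcripts of the 8 pairs compared shared 0 stretches of 50 bases. The longest identical run in the coding sequence was 26 bases for Arid1a and Arid1b, 20 for Smarca2 and Smarca4, and 26 for Smarcc1 and Smarcc2, against 18 to 21 for the Smarcd pairs and 15 to 19 for Arid2 with Arid1a or Arid1b. The runs of the first 3 pairs are shown with 15 coding bases on either side, with the identical run in capitals, because they are the longest stretches that do not tell these paralogs apart.
Arid1a: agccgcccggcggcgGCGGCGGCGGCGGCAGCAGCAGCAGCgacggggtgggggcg
Arid1b: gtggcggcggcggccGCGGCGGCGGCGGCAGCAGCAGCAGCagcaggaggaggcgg
Smarca2: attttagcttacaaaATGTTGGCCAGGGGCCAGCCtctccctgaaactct
Smarca4: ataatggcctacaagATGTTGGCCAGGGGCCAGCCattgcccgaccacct
Smarcc1: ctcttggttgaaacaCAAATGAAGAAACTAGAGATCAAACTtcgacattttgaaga
Smarcc2: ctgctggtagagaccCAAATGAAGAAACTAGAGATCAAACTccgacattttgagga

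The Arid1 run is a GC-rich repeat in exon 1 of both genes, at chr4:133753222-133753247 on the minus strand and chr17:4995971-4995996 on the plus strand (GRCm38, GENCODE M21). The Smarca run lies in exon 4 of both genes, at chr19:26630885-26630904 and chr9:21635745-21635764, and the Smarcc run in exon 25 of both, at chr9:110213569-110213594 and chr10:128485620-128485645, all on the plus strand. Smarcd3 is the exception to clean counting. Of its annotated exon bases 48.2% lie under exons of other genes, mainly Chpf2 on the opposite strand, and 12.7% of those of Smarcd1 lie under antisense genes. For the other 8 genes this share was at most 1.57%. The libraries were made with a stranded kit, but how featureCounts treated strand is not given in the sources used here. Smarcd3 and Smarcd1 counts may therefore include antisense reads.

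Some properties of the lines moved with genotype, and their part in the results that follow was not tested. The 12 fibroblast markers looked up summed to 66.0 to 173 normalized counts in KPC lines and to 15885 to 89057 in KPCAf/f lines, where 8 to 11 of the 12 reached 10 counts, against 2 in each KPC line. Lum and Fap, markers of fibroblasts, were at 0 in all KPC lines, and Fap was at most 4.50 in the KPCAf/f lines. Lum was at 126 in A1693 but only at 0.843 to 7.05 in the remaining KPCAf/f lines. Of 12 pancreatic epithelial markers, 11 or 12 reached 10 counts in KPC lines and 8 to 12 in KPCAf/f lines. Their sums did not overlap, at 182727 to 374574 normalized counts in KPC and 6887 to 135598 in KPCAf/f. Line A1693 was nearly without the pancreas factor Pdx1 (2.70) and the adhesion gene Cdh1 (10.8), while other markers of that list were present, with 945 normalized counts of Sox9, 2466 of Krt8, 2808 of Krt18 and 608 of Krt19. The splicing factor Esrp1 was at 0 in A1693 and A1925, at 8.99 in KPCAf/f line A2441 and at 6.62 in KPC line A1620. The epithelial marker Cldn7 was at 0.900 in A1693 and at 8.99 in A2441. The trend of levels with transcript length also moved with genotype. The KPC line A1620 stood apart in how its levels fell with transcript length, described with the ARID genes. In bulk libraries a change in the share of a cell type cannot be told apart from a change per cell. Immune markers summed to at most 199 counts and endothelial markers to at most 677 in any line. Together 4 Y-linked genes had 1148 to 3415 reads in each KPC line and 0 to 3 in each KPCAf/f line, so genotype and Y-linked expression cannot be told apart in any comparison below. The X-linked transcript Xist was at 1.96 to 6.63 normalized counts in KPC lines and at 3.60 to 18451 in KPCAf/f lines. The part of sex or of loss of the Y chromosome was not tested. Reads assigned to genes ranged from 15124888 to 20419830 per library.

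Arid1a, the gene named in the title, was measured in every line at a substantial level. The KPC lines had 2267 (A1081), 820 (A1620), 3109 (A1625), 2460 (A2031) and 1915 (A2032) normalized counts, which are read counts divided by a size factor for each library. The KPCAf/f lines had 1785 (A1693), 1253 (A1809), 1510 (A1925), 1258 (A2441) and 1519 (A3992). All KPC lines except A1620 lay above all KPCAf/f lines, and A1620 lay below all of them. The means were 2114 ± 844 (SD, n = 5) in KPC and 1465 ± 221 (SD, n = 5) in KPCAf/f. The difference of -0.42 on the log2 scale (SE 0.32, KPCAf/f minus KPC, 95% interval -1.11 to 0.28) missed the threshold of 0.05 (limma adjusted p = 0.563 over 13089 genes). A gene-level count includes exons outside any deleted part, so it does not check the state of an Arid1a allele. The gene spans chr4:133679008-133756769 (GRCm38).

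Arid1b, the paralog that stands in for Arid1a in canonical BAF when that subunit is absent, had its 3 highest values in KPCAf/f lines. The KPC lines had 1189 (A1081), 392 (A1620), 952 (A1625), 1426 (A2031) and 1280 (A2032) normalized counts, and the KPCAf/f lines had 1824 (A1693), 1413 (A1809), 1449 (A1925), 1904 (A2441) and 1192 (A3992). The ranges overlapped, with A3992 and A1809 below the highest KPC line, A2031. The log2 difference was 0.68 (SE 0.33, limma adjusted p = 0.377), and it was 0.35 without A1620 and 0.24 with a correction for transcript length. Arid2, the PBAF subunit, had 1398, 363, 1939, 1885 and 1989 normalized counts in the KPC lines in the same order, and between 1671 and 2020 in the KPCAf/f lines. A1620 and A1081 were the lowest lines, the other 3 KPC lines lay inside the KPCAf/f range, and the log2 difference of 0.50 did not pass the test (SE 0.42, limma adjusted p = 0.592). Without A1620 it was 0.044, and with the length correction 0.15.

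**Figure D1:**
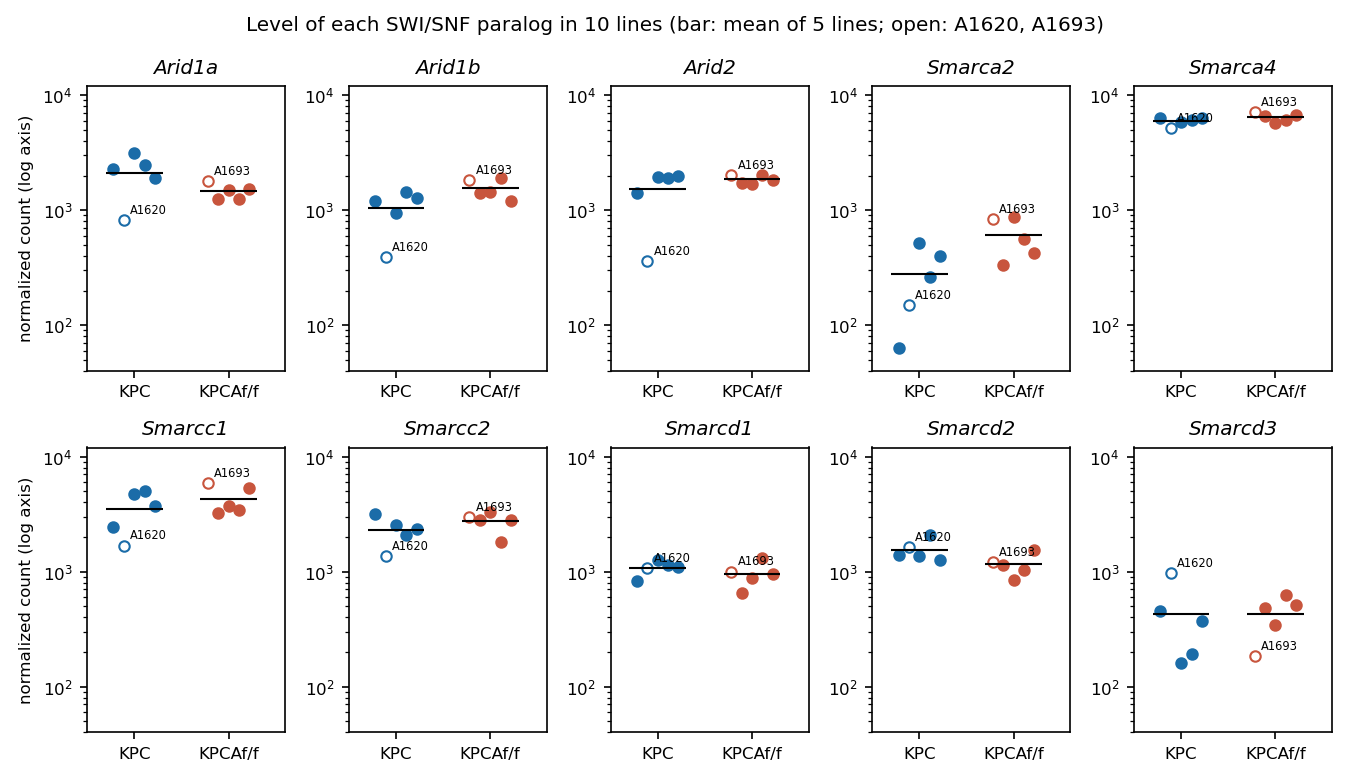
Normalized counts of the 10 paralogs on a log axis, 1 point per line, KPC in blue and KPCAf/f in red, with a bar at the mean of 5 lines and open points for A1620 and A1693. Both genotypes overlap in every panel, A1620 is the lowest line for Arid1a, Arid1b and Arid2, and Smarca4 varies least.

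The level of 1 gene in a line carries the scaling of that library, whereas the ratio of 2 genes within a line does not. Within lines, Arid1a and Arid1b separated the genotypes. There were 1.91 (A1081), 2.09 (A1620), 3.26 (A1625), 1.72 (A2031) and 1.49 (A2032) Arid1a counts per Arid1b count in the KPC lines. The KPCAf/f lines had 0.979 (A1693), 0.887 (A1809), 1.04 (A1925), 0.661 (A2441) and 1.27 (A3992). Every KPC line lay above every KPCAf/f line, and A1620, which had the lowest level of both genes, had the second highest ratio. The mean log2 ratio was 1.01 ± 0.43 (SD, n = 5) in KPC and -0.079 ± 0.35 (SD, n = 5) in KPCAf/f. The ratio was thus 2.13-fold higher in KPC, with a log2 difference (KPCAf/f minus KPC) of -1.09 (SE 0.25).

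The two-sided exact permutation p over 252 splits of the lines was 0.00794, the smallest these lines can give, and 0.0317 after Benjamini-Hochberg adjustment over the 8 ratios. This call held without any 1 of the KPC lines A1081, A1620, A2031 or A2032 (adjusted p = 0.0317). It was lost without A1625 or any 1 of the KPCAf/f lines (adjusted p = 0.0635 in an exact permutation test, log2 difference -0.92 to -1.20). Without A1693, A1809, A1925 or A3992 the unadjusted permutation p of this ratio stayed at 0.00794, the smallest possible. Its adjusted p rose there because the permutation p of Arid1a over Arid2 was 0.0159. Without A1625 or A2441 the unadjusted p of this ratio was 0.0159. A lone ratio at 0.00794 would not pass the adjustment over 8 ratios. Each of these subsets leaves 126 splits. Without both A1620 and A1693 the log2 difference was -1.09, with p = 0.0286, the smallest that the exact permutation of 4 against 4 lines can give, and an adjusted p of 0.0762. In each of these subsets the genotypes did not overlap. The ratio was picked with the levels of both genes known, and it holds Arid1a, the gene named in the series title. How far the genotype itself sets the Arid1a count was not tested. As background, the ratio to Arid1b did not overlap between the genotypes for 7.11% of 13088 tested genes, and the ratio to Arid1a for 8.06%. When the ratios of all tested genes to Arid1b were fitted together, that of Arid1a did not pass (limma adjusted p = 0.160), where 1.27% of ratios did.

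**Figure D2:**
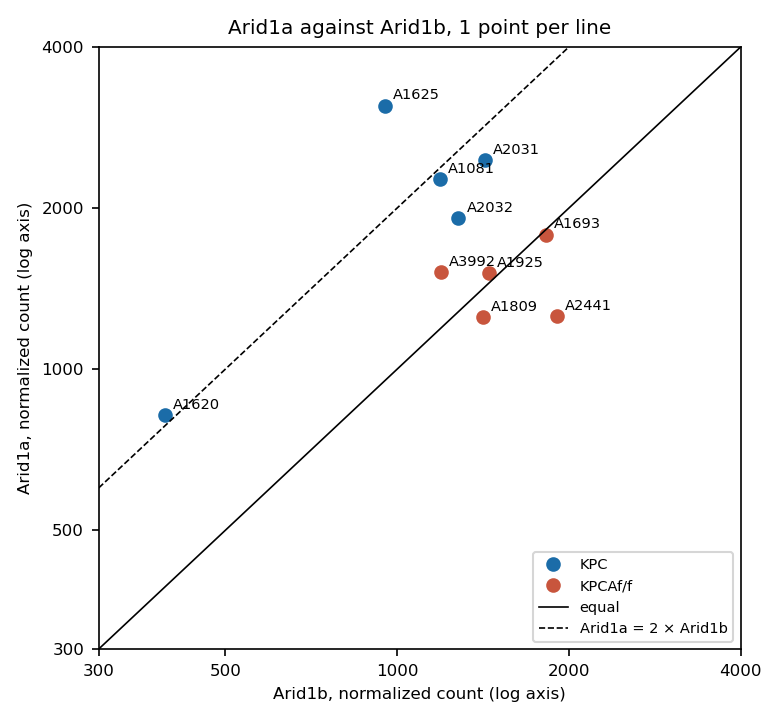
Normalized counts of Arid1a against Arid1b on log axes, 1 labelled point per line, with lines for equal counts and for 2 times as much Arid1a. KPC lines lie at 1.49 to 3.26 Arid1a counts per Arid1b count, and KPCAf/f lines lie around equality, at 0.661 to 1.27.

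Arid1a was also lower against Arid2 in the KPCAf/f lines. Arid1a counts per Arid2 count were 1.62, 2.26, 1.603, 1.30 and 0.963 in KPC lines A1081, A1620, A1625, A2031 and A2032. They were 0.892, 0.733, 0.904, 0.623 and 0.829 in KPCAf/f lines A1693, A1809, A1925, A2441 and A3992. The ranges did not overlap, although the lowest KPC line (A2032) and the highest KPCAf/f line (A1925) lay close together. The log2 difference was -0.92 (SE 0.23, exact permutation p = 0.00794, adjusted p = 0.0317). Without A1625 or any 1 KPCAf/f line the adjusted p of the exact permutation test was 0.0635, and without both A1620 and A1693 it was 0.0762 (log2 difference -0.81). The unadjusted permutation p was 0.00794 without A1625 and 0.0159 without any 1 KPCAf/f line. Ratios to Arid2 did not overlap for 3.78% of tested genes, and in the fit over all ratios to Arid2 that of Arid1a did not pass (limma adjusted p = 0.426), where 1.07% did. The ratio of Arid1b to Arid2 did not differ past the threshold (log2 difference 0.17, SE 0.21, exact permutation p = 0.444, adjusted p = 0.593). Its difference was 0.31 without A1620 and 0.026 without A1625. Both called ratios hold Arid1a, so they are not independent of each other. With all 10 lines, these were the only 2 of the 8 ratios called and the only 2 whose genotypes did not overlap.

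**Figure D3:**
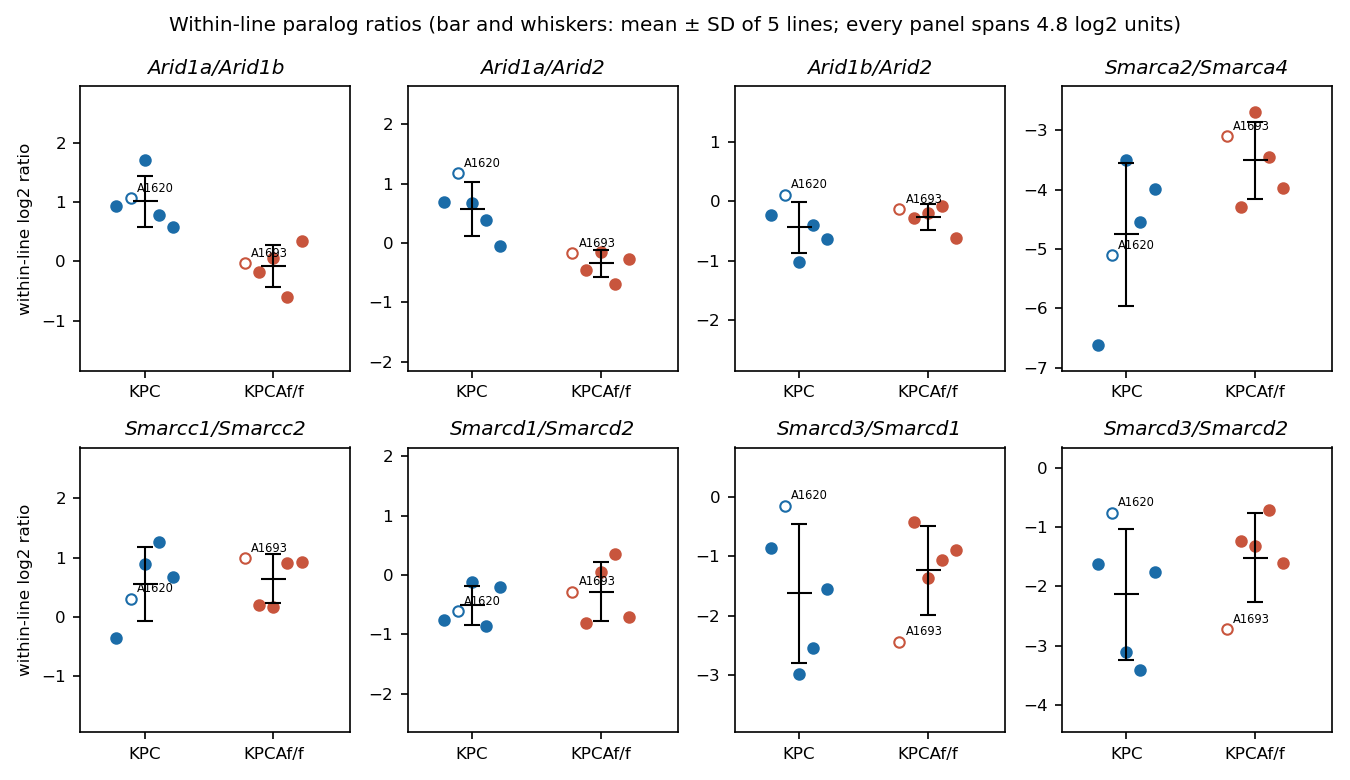
Within-line log2 ratios of 8 paralog pairs, 1 point per line, with the mean and SD of 5 lines per genotype and open points for A1620 and A1693. Arid1a over Arid1b and Arid1a over Arid2 separate the genotypes, and the other 6 ratios overlap.

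To compare levels between genes, counts were divided by the length of the longest annotated transcript. Arid1a then made up 67.4% to 81.9% of the Arid1a and Arid1b counts per kb in KPC lines and 47.7% to 63.8% in KPCAf/f lines. With merged exon length in place of the longest transcript these ranges were 62.1% to 78.2% and 42.0% to 58.3%. Summed per kb, the Arid1 pair was at 351 ± 129 (SD, n = 5) in KPC and 316 ± 39.1 (SD, n = 5) in KPCAf/f, and the KPC range (135 in A1620 to 464 in A1625) enclosed all KPCAf/f lines.

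Line A1620 stood apart in its trend with transcript length. With each doubling of the longest transcript, levels in A1620 relative to the mean of all lines changed by -0.65 (log2) across tested genes. Slopes were -0.021 to 0.039 for the 4 remaining KPC lines, and 0.096 to 0.15 for KPCAf/f. The trend thus separated the genotypes also without A1620. Arid2, Arid1b and Arid1a, with longest transcripts of 8507, 11325 and 8187 bases, were lower in A1620 than the mean of the other 9 lines by differences of -2.32, -1.81 and -1.15 on the log2 scale. Smarcd2, with 2747 bases, and Smarcd1, with 3307, differed by 0.36 and 0.12, and Smarcd3 by 1.54. Over the 10 paralogs Spearman's rho between length and this difference was -0.82, and over the 24 paralogs and other subunits with a length it was -0.55, as a description of 1 library. Without A1620 the log2 difference of the Arid1a level was -0.72 (limma adjusted p = 0.0857), and without A1625 it was -0.24 (limma adjusted p = 0.743). With a loess correction for transcript length in every line it was -0.76 (SE 0.17, limma adjusted p = 0.0476), where 1.86% of genes were called, and no other paralog passed. With array weights, which give less weight to lines that stand apart, its limma adjusted p was 0.0516, where 4.48% of genes were called. The Arid1a to Arid1b ratio changed less, to a log2 difference of -1.08 without A1620 and -0.998 with the correction (exact permutation adjusted p = 0.0317 each).

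**Figure D4:**
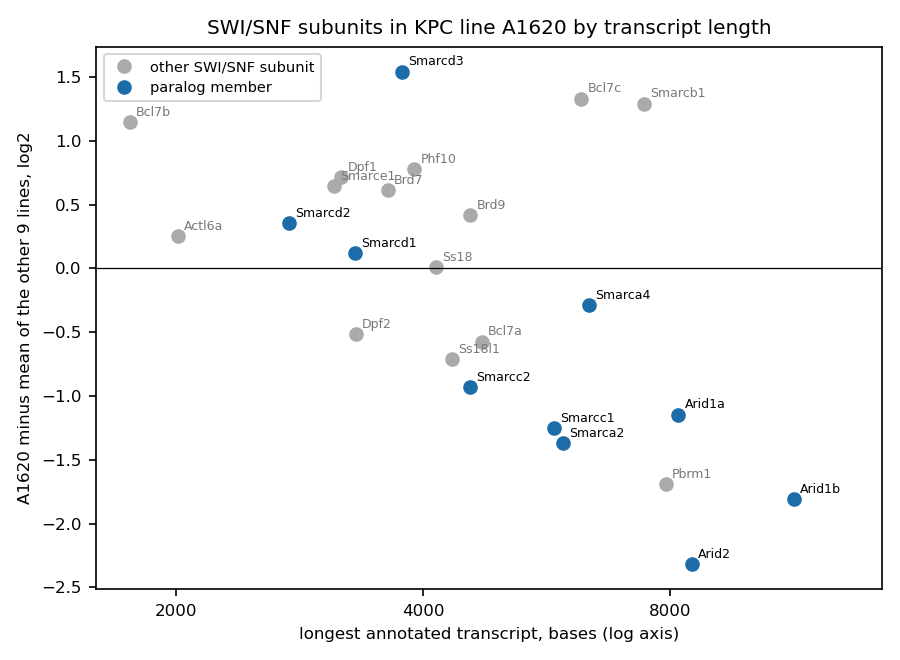
Log2 difference between line A1620 and the mean of the other 9 lines against the longest annotated transcript (log axis), for the 10 paralogs in blue and 14 other SWI/SNF subunits in grey. The 7 paralogs with transcripts of 4562 bases or more lie below 0 and the 3 Smarcd genes above it, while the other subunits Smarcb1 and Bcl7c lie above 0 at long lengths.

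Smarca4, which encodes the ATPase BRG1, was the most abundant of the 10 genes per kb and the steadiest. It ranged from 5169 (A1620) to 6347 (A1081) normalized counts in KPC and from 5677 (A1925) to 7135 (A1693) in KPCAf/f. Its spread within genotypes, an SD of 0.13 on the log2 scale, was lower than that of all but 0.0764% of tested genes. The log2 difference was 0.11 (95% interval -0.21 to 0.43, limma adjusted p = 0.736), and it was 0.061 without A1620 and 0.074 without A1693.

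Smarca2, which encodes the alternative ATPase BRM, was the least abundant per kb and the most variable of the 10 within genotypes. The KPC lines had 63.4 (A1081), 150 (A1620), 519 (A1625), 260 (A2031) and 397 (A2032) normalized counts, and the KPCAf/f lines had 829 (A1693), 335 (A1809), 880 (A1925), 556 (A2441) and 426 (A3992). The 3 highest lines were KPCAf/f and the 3 lowest were KPC, with A1625, A2032, A1809 and A3992 interleaved. The log2 difference was 1.36 (SE 0.54, 95% interval 0.17 to 2.55). It was the only one of the 10 paralogs with an unadjusted p under 0.05, as had 14.6% of tested genes, and it did not pass after adjustment (limma adjusted p = 0.280). Its SD within genotypes, 0.95 on the log2 scale, was at the 76.8th percentile of tested genes.

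Within lines there were 0.0101 (A1081), 0.0291 (A1620), 0.0887 (A1625), 0.0429 (A2031) and 0.0627 (A2032) Smarca2 counts per Smarca4 count in KPC. The KPCAf/f lines had 0.116 (A1693), 0.0510 (A1809), 0.155 (A1925), 0.0915 (A2441) and 0.0634 (A3992). KPC and KPCAf/f lines overlapped, and the span across the KPC lines alone was wider than the difference between genotypes. With a log2 difference of 1.25 (SE 0.61), it did not pass (exact permutation p = 0.0556, adjusted p = 0.148), and the difference was 0.78 without A1081. Per kb, Smarca2 was 1.06% to 8.71% of the ATPase pair in KPC lines and 5.19% to 14.3% in KPCAf/f lines. These shares use a longest Smarca2 transcript of 5921 bases. With merged exons, which total 14269 bases for this gene, they were 0.451% to 3.86% and 2.26% to 6.57%.

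**Figure D5:**
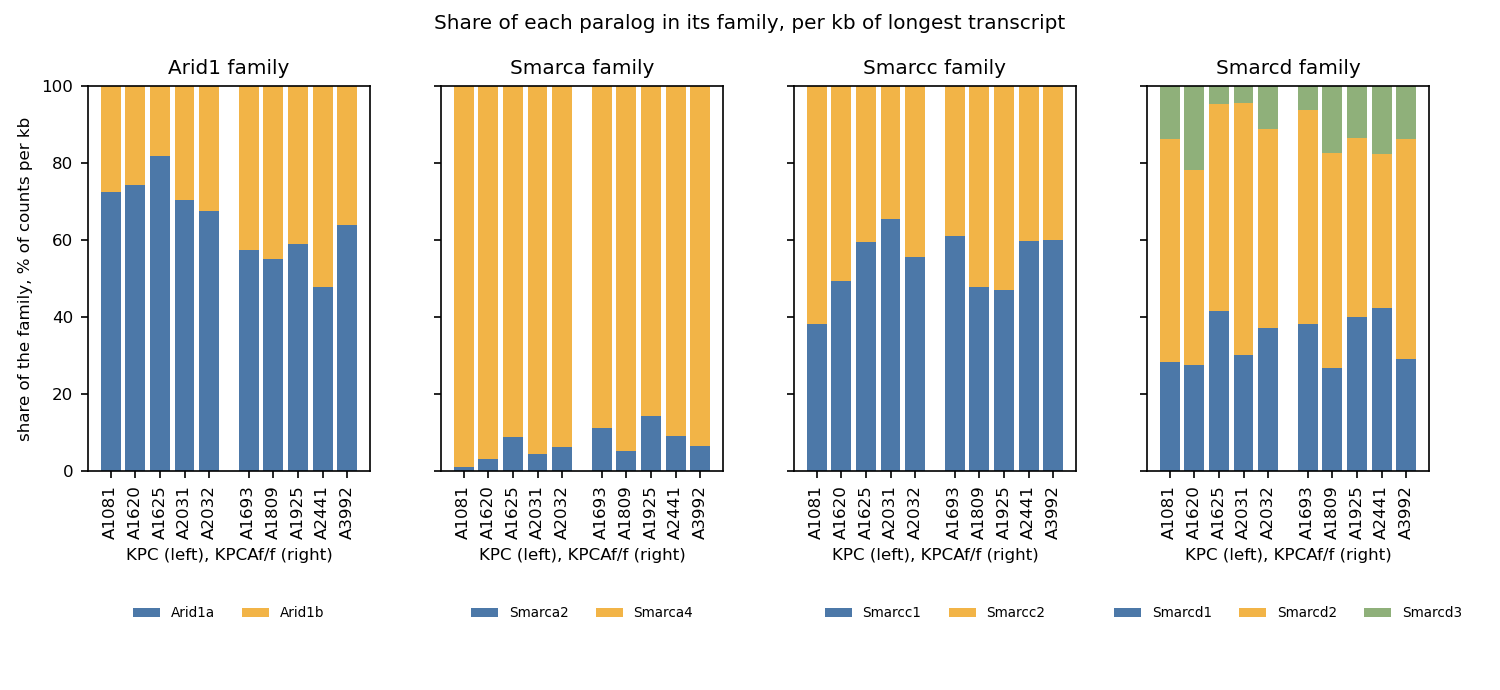
Share of each paralog in its family, in percent of normalized counts per kb of longest transcript, 1 bar per line with KPC lines on the left and KPCAf/f lines on the right. Arid1a takes a smaller share in all KPCAf/f lines (47.7% to 63.8%) than in any KPC line, Smarca4 takes at least 85.7% of its pair in every line, and the Smarcc and Smarcd shares overlap.

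The core scaffold genes Smarcc1 and Smarcc2 (BAF155 and BAF170) did not separate the genotypes. Smarcc1 had 2447, 1686, 4714, 5056 and 3691 normalized counts in KPC lines A1081, A1620, A1625, A2031 and A2032, and 5877, 3234, 3704, 3422 and 5305 in KPCAf/f lines A1693, A1809, A1925, A2441 and A3992. Smarcc2 ranged from 1363 (A1620) to 3146 (A1081) in KPC and from 1814 (A2441) to 3294 (A1925) in KPCAf/f. The log2 differences were 0.36 for Smarcc1 (SE 0.32, limma adjusted p = 0.609) and 0.28 for Smarcc2 (SE 0.24, limma adjusted p = 0.613). Without A1620 they were 0.13 and 0.10. Smarcc1 counts per Smarcc2 count ran from 0.778 (A1081) to 2.41 (A2031) in KPC and from 1.12 to 1.98 in KPCAf/f. A1081 was the only line with more Smarcc2 than Smarcc1 counts. The log2 difference of that ratio was 0.088 (SE 0.33, exact permutation p = 0.794), and it was -0.14 without A1081, so no direction is given.

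The 3 Smarcd genes encode the interchangeable BAF60 subunits, which link the complex to transcription factors. Smarcd2 had 1395, 1645, 1378, 2066 and 1267 normalized counts in KPC lines A1081, A1620, A1625, A2031 and A2032, and 1214, 1137, 853, 1032 and 1557 in KPCAf/f lines A1693, A1809, A1925, A2441 and A3992. Only A3992 reached into the KPC range. With a log2 difference of -0.43 (SE 0.21), it did not pass (limma adjusted p = 0.373). Smarcd1 ranged from 823 (A1081) to 1271 (A1625) in KPC and from 651 (A1809) to 1323 (A2441) in KPCAf/f (log2 difference -0.19, SE 0.21, limma adjusted p = 0.693). That difference was -0.062 without A1809 and -0.32 without A2441.

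Smarcd3, the family member known from heart and muscle development, had the widest range of the 3 on the log2 scale. The KPC lines had 452 (A1081), 974 (A1620), 159 (A1625), 193 (A2031) and 372 (A2032) normalized counts, and the KPCAf/f lines had 184 (A1693), 484 (A1809), 342 (A1925), 631 (A2441) and 512 (A3992). A1620 had the highest value, and A1625, A2031 and A1693 the lowest. The means were 430 ± 327 (SD, n = 5) in KPC and 430.4 ± 172 (SD, n = 5) in KPCAf/f (log2 difference 0.19, SE 0.51, limma adjusted p = 0.874). Its antisense neighbour Chpf2 had 716 to 1191 normalized counts in KPC and 804 to 1449 in KPCAf/f. The part of antisense reads in the Smarcd3 counts was not tested. None of the 3 Smarcd ratios passed, with log2 differences of 0.23 for Smarcd1 over Smarcd2, 0.38 for Smarcd3 over Smarcd1 and 0.62 for Smarcd3 over Smarcd2 (exact permutation adjusted p = 0.593, 0.626 and 0.593). Smarcd1 over Smarcd2 differed by 0.36 without A1809 and 0.074 without A2441. Smarcd3 over Smarcd1 differed by 0.75 without A1620 and 0.043 without A1625, and Smarcd3 over Smarcd2 by 0.96 without A1620 and 0.297 without A2031. Without both A1620 and A1693, Smarcd3 over Smarcd2 differed by 1.26 with no overlap between genotypes (exact permutation p = 0.0286, the smallest that 4 against 4 lines can give, adjusted p = 0.0762).

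All 10 paralogs passed the filter on low counts, and by limma 0 of 10 were called, where 1.75% of the 13089 tested genes were (1.36% with higher levels in KPCAf/f and 0.39% with lower). edgeR, DESeq2 and limma-voom on the recovered reads also called 0, and 1 paralog (Smarca2) had an unadjusted p under 0.05 in each of these 4 fits. The exception was the transcript length correction, which called Arid1a as described above. The levels of the genotypes did not overlap for 0 of the 10, against 4.53% of tested genes. The median log2 difference of the 10 was 0.23, and that of all tested genes was -0.011. The median of the 10 was 0.081 without A1620, 0.019 without A1620 and A1693, and 0.033 with array weights. Of the other 20 SWI/SNF subunits looked up, 16 passed the filter and 0 were called by limma in either direction, with a median log2 difference of 0.037. The 4 with the smallest p were Bcl7a, Actl6a, Gltscr1 and Ss18. Bcl7a, an accessory subunit, was at 182 ± 55.8 (SD, n = 5) normalized counts in KPC and 513 ± 281 (SD, n = 5) in KPCAf/f (limma adjusted p = 0.154), and was called by DESeq2, which called 5.7% of genes. Gltscr1, a subunit of the non-canonical complex, was at 337 ± 88.9 and 465 ± 74.1 with no overlap between the genotypes (limma adjusted p = 0.407). Actl6a, the actin-like subunit, was at 2591 ± 619 and 1881 ± 357 (limma adjusted p = 0.366), and Ss18 at 2613 ± 498 and 2173 ± 270 (limma adjusted p = 0.508). Actl6b, Dpf3, Bcl11a and Bcl11b did not pass the filter.

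Per kb the order of the means in KPC was Smarca4, Smarcc1, Smarcd2, Smarcc2, Smarcd1, Arid1a, Arid2, Smarcd3, Arid1b and Smarca2. In KPCAf/f the order differed in 3 swaps of neighbours, with Smarcc2 above Smarcd2, Arid2 above Arid1a and Arid1b above Smarcd3. In KPC Smarca4 was at 935 ± 76.5 per kb and Smarcc1 at 609.5 ± 250 (SD, n = 5 each). The lower neighbours lay within their SDs of each other: Arid1a at 258 ± 103, Arid2 at 178 ± 80.6, Smarcd3 at 114 ± 86.7 and Arid1b at 92.5 ± 35.8. In KPCAf/f these 4 were at 179 ± 27.0, 217 ± 18.9, 114.1 ± 45.6 and 137 ± 26.4.

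The genes most like each paralog over the 10 lines were named by Pearson's r of log2 levels among 11804 genes, as a description in which all points share the same libraries. For Arid1a these included Ing3 and Ptbp1 (r = 0.95 and 0.90), and its r with Arid2 was 0.63. For Arid1b they were Wnk1, Spred1 and Ppfibp1 (0.99, 0.98 and 0.98), and for Arid2 they were Wac, Usp9x and Taok1 (0.99 each). Both paralogs were far lower in A1620 than in the mean of the other lines, and r can rest largely on such a line. The r of these genes without A1620 was not computed. Arid1b and Arid2 were the most alike of the 8 pairs (r = 0.90, Spearman's rho 0.60) with both lowest in A1620, while Arid1a and Arid1b had r = 0.36 (rho -0.14). Smarca2 was most like Epc1, Wipf1 and Dync1h1 (0.97, 0.94 and 0.93), Smarca4 like Ccdc77 and Chek1 (0.93 and 0.91), Smarcc1 like Slf1, Ubr4 and Vprbp (0.96, 0.95 and 0.95), and Smarcc2 like Rab5b, R3hdm2 and Zfp119b (0.94, 0.94 and 0.94). Smarcd1 was most like Kansl2, Nup50 and Xrcc2 (0.90, 0.90 and 0.86), Smarcd2 like Ccdc43, Rab5c and Nrf1 (0.94, 0.92 and 0.92), and Smarcd3 like Nudt18, Ptdss2 and Atp6v0e (0.92, 0.92 and 0.90). The 3 Smarcd pairs had r between -0.20 and 0.24.

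The paralogs lie on 8 chromosomes, with Arid2 and Smarcd1 both on chromosome 15 and Smarca4 and Smarcc1 both on chromosome 9. In RefSeq promoter windows of 300 bases (GRCm38.p6), which were found for 9 of the 10 genes and number 2 for Arid1a, the median count of CG dinucleotides was 34, against 7 over 32851 windows of all genes. Smarcd2, with 4, was the only one of these 9 below 22. Its window (chr11:106267583-106267882, minus strand) lies inside the gene, whose annotated 5' end is at 106272972. It may thus not be the main promoter. The Arid1b, Smarcc1 and Smarcd3 windows also lie inside their genes, as does the Arid1a window at chr4:133753936-133754235.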

How the data were processed

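RNA from 10 mouse lines was sequenced, 1 library each. Per the submitters' processing notes, DESeq2 1.14.1 and R 3.3.2 were used, with STAR 2.5.2b, Trimmomatic 0.36, bcl2fastq 1.8.4 and, from Subread 1.5.0p3, featureCounts. Both GRCm38.p5 and mm9 are listed there with no role. The deposited signal is the read count per gene divided by a library size factor, and dividing each column by its step gave whole reads for 100% of values within 0.001 of a read. All value columns were mapped to a sample by line name.

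Genes with at least 10 normalized counts in at least 5 of the 10 lines (13089) were tested with limma 3.58.1 (R 4.3.3, intensity trend) on log2(normalized count + 1), with Benjamini-Hochberg adjustment over all of them and a threshold of 0.05. Fold changes on that scale understate changes of low genes. Within-line ratios were tested by two-sided exact permutation of the lines, adjusted over 8 ratios. Recovered reads were also tested with edgeR 4.0.16, DESeq2 1.42.0 and limma-voom. Other alternatives were pseudocounts of 0.5 and 8, other filters and scalings, array weights, a loess correction (span 0.5) for transcript length, leaving out each line, and leaving out A1620 and A1693. A limma fit over the ratios of all tested genes was added after the data were seen. The fits were tested on simulated data, where limma recovered 56% of 4-fold and 91% of 16-fold changes, so smaller changes can be missed. Of the simulated calls, 2.65% were false with limma and 18.6% with DESeq2. Transcript lengths and coordinates came from GENCODE M21 (GRCm38), where 95.3% of the 49568 symbols were found. Each of the 45 library pairs differed beyond counting noise. The paralogs, the ratios and the other lists were chosen with earlier results of these data known. Named were all 10 paralogs, the 4 other subunits with the smallest p, the 3 genes most like each paralog (leaving out clone-based and pseudogene symbols, and a few genes not reported here), and markers that a line lacked.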

Additional observations from a re-analysis of the deposited data

Results flagged for a closer look

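In 36 groups of 5 values (levels and within-line ratios in each genotype), the gap from the lowest or highest line to its nearest neighbour was taken as a share of the range, both on the log2 scale. Of these, 2 exceeded the critical share of 0.71 for 5 values, and chance alone gives about 1 in 20. Arid2 in line A1620 was at 363 normalized counts, far below the other KPC lines (gap 0.793 of the log2 range). Smarcc2 in line A2441 was at 1814 normalized counts, below the other KPCAf/f lines (gap 0.720 of the log2 range).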

How the results depend on the processing

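Of 220 log2 differences of the 10 paralogs under alternatives, 213 kept their direction and their side of the threshold, 6 changed direction and 1 (Arid1a) newly passed. With the transcript length correction Arid1a was at -0.76 (limma adjusted p = 0.0476), so that 1 of 10 paralogs was called, and Smarca4 turned to -0.13. Smarcc1 turned to -0.025 with array weights. Smarcd3 turned to -0.00053 with edgeR, -0.017 with DESeq2, -0.088 without A1625 and -0.019 without A2031 (range -0.088 to 0.56 over lines left out). DESeq2 called 1 of the other subunits (Bcl7a). The Arid1a to Arid1b ratio difference ranged from -1.20 to -0.92, and the Arid1a to Arid2 difference from -1.08 to -0.77, when each line was left out. Both lost the call without A1625 or any 1 KPCAf/f line, and without both A1620 and A1693 (-1.09 and -0.81, a subset with 70 splits). Both also lost it in the limma fit over the ratios of all genes (-1.09, adjusted p = 0.160, and -0.92, adjusted p = 0.426). The Smarcc1 to Smarcc2 difference turned to -0.14 without A1081 (range -0.14 to 0.27 over lines left out) and to -0.061 without A1620 and A1693. Where no construction explains a change, the cause was not tested. No paired analysis was possible because the labels give no pairing between lines. With 5 lines per genotype no exact p can go below 0.00794. The lowest value of any paralog was Smarca2 in A1081, at 63.4 normalized counts. Its log2 difference was 1.36 with a pseudocount of 0.5 and 1.32 with 8.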
